A study of Homo sapiens with 6 samples.

Results

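The zinc finger and basic helix-loop-helix transcription factor genes ZEB1, ZEB2, TWIST1, TWIST2, SNAI1, SNAI2 and SNAI3 were described in SKOV3 cells, at the level of genes and of single transcripts. These 7 genes were chosen by name as the ZEB, TWIST and SNAI families, and they are 7 of the 34834 genes that had a quantified transcript. SKOV3 is an established human ovarian cancer cell line. The experiment had 3 samples transfected with 50 nM of a pooled siRNA against the long non-coding RNA DNM3OS (DNM3OS knockdown, KD) and 3 transfected with 50 nM of a pooled non-targeting siRNA (NT), all collected after 48 h. All 6 samples shared the cell line, the growth medium and the transfection reagent. RNA was total RNA depleted of ribosomal RNA, and the libraries kept strand. The labels do not say whether the samples came from separate cultures, so p-values measure only the spread between these samples, which may be technical.

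The 3 families act on a shared set of genes during the epithelial-to-mesenchymal transition (EMT), in which epithelial cells lose their junctions and gain the ability to migrate. SNAI and ZEB proteins bind E-box sequences through zinc fingers and recruit co-repressors to epithelial genes such as CDH1, which encodes E-cadherin. TWIST proteins bind E-boxes as dimers with E proteins and both activate mesenchymal genes and repress epithelial genes. The miR-200 family represses ZEB1 and ZEB2, which in turn repress the miR-200 loci. SNAI1 and SNAI2 proteins are short lived and are controlled by ubiquitin ligases, so their RNA and protein levels need not move together. Proteins were not measured in these libraries.

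Each sample had between 1610937 and 1995888 estimated counts. These are reads assigned to transcripts, so they do not give the number of reads sequenced. On the TMM-scaled CPM (counts per effective library size) used below, 3 counts equalled 1.395 to 2.105 CPM. Between 93.62% and 95.22% of the counts fell on transcripts of GENCODE 44. Cytosolic ribosomal protein genes held between 0.1913% and 0.5137% of the counts on genes, and PLLP alone between 15.68% and 22.25%. DNM3OS knockdown replicate 1 stood apart from the other knockdown samples, with a chi-square statistic per degree of freedom of 11.27 and 11.75 against them, whereas the other pairs of the same group gave 2.124 to 4.584. Of 10 markers of SKOV3 cells, KRT8 at a mean of 3786 TPM and ERBB2 at 316 TPM were abundant, and WT1 at 0.495 TPM, MUC16 at 0.0231 TPM and KRT7 at 16.8 TPM were below the count filter. The summed TPM of these markers ranged from 3377 to 6474 in KD and from 3173 to 4721 in NT. Most of this sum was KRT8, at 3048, 4190 and 5740 TPM in KD and 3252, 2613 and 3870 TPM in NT. Of 12 markers of other cell types, 11 had a count in some sample, including the leukocyte gene PTPRC at 80.5 TPM, and HBB was at 0. Their sum ranged from 172.4 to 193.1 TPM in KD and from 144.7 to 180.2 TPM in NT. The part of these marker levels and of the ribosomal protein share in the values below was not tested.

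The members spanned a wide range of TPM, which is scaled per length. The order below has limits, since the strand setting is not given and antisense reads may be included. Of the counts, 100% for SNAI3 and 96.0% for ZEB1 lay on transcripts that overlap an annotated exon on the opposite strand. TPM also depends on the transcript to which reads were assigned. In knockdown replicate 1, 11.5 counts on a ZEB1 transcript of 564 bases gave 20.5 of the gene's 52.0 TPM. Over the 6 samples, SNAI3 was highest at 62.3 ± 17.8 TPM (mean ± SD, n = 6), followed by ZEB1 at 46.3 ± 11.5 TPM. ZEB2 was at 16.99 ± 2.82 TPM, TWIST1 at 9.66 ± 1.62 TPM and TWIST2 at 8.03 ± 3.46 TPM. SNAI2 at 1.55 ± 1.34 TPM and SNAI1 at 0.177 ± 0.433 TPM closed the order. SNAI3 and ZEB1 could not be separated, since their samples ranged from 47.5 to 93.2 TPM and from 29.6 to 60.4 TPM. ZEB2, at 13.8 to 20.9 TPM, lay below every ZEB1 sample and above every TWIST1 sample, which ranged from 7.64 to 12.3 TPM. TWIST2, at 4.27 to 13.6 TPM, overlapped TWIST1, and SNAI2, at 0.354 to 3.62 TPM, lay below TWIST2 and overlapped SNAI1, at 0 to 1.06 TPM. Among all 34834 genes, 93.8% had a lower mean TPM than SNAI3, 91.3% than ZEB1 and 78.97% than ZEB2. The corresponding shares were 70.7% for TWIST1, 68.1% for TWIST2, 50.3% for SNAI2 and 37.9% for SNAI1. These shares count genes at 0 TPM in all samples. Among the 22967 genes with a mean TPM above 0, they were 90.6% for SNAI3, 86.7% for ZEB1 and 68.1% for ZEB2. Among the same genes, they were 55.6% for TWIST1, 51.6% for TWIST2, 24.7% for SNAI2 and 5.79% for SNAI1.

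**Figure D1:**
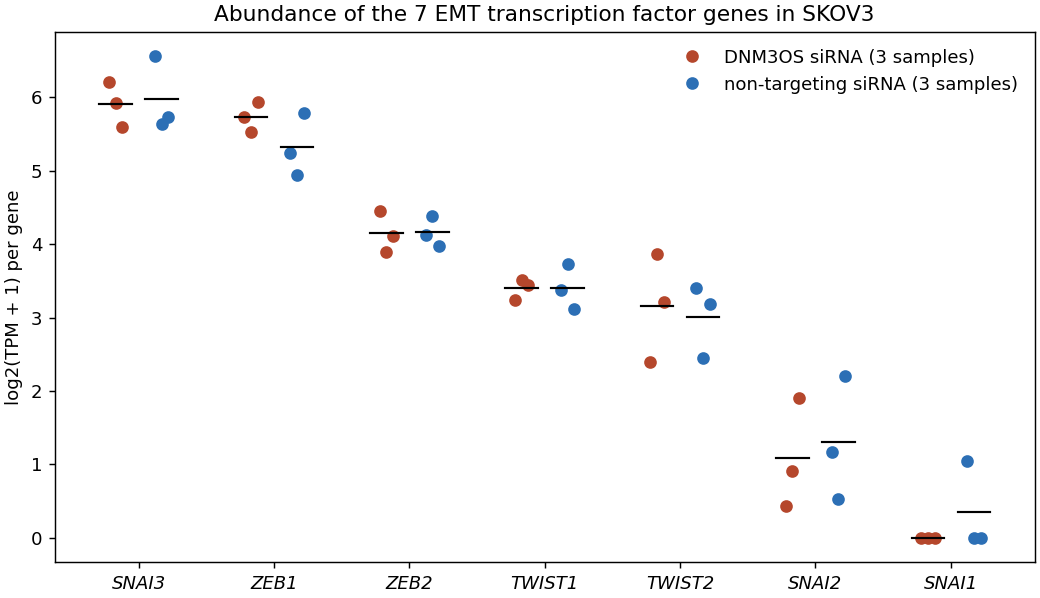
Abundance of each member in each sample as log2(TPM + 1) per gene, with knockdown samples in red, controls in blue and a line at each group mean. Genes are ordered by mean TPM from SNAI3 at 62.3 to SNAI1 at 0.177, and the groups overlap for all 7 genes.

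These levels rested on few transcripts. The files quantified 62 transcripts of the members, of which 22 had a count in some sample and 40 were at 0 in all samples. Lengths in the files and in GENCODE 44 were the same for 52 of them and differed for the others. Most members also have annotated genes on their opposite strand. Within 5000 bases of a member, 14 genes were annotated on the other strand, and the exons of 7 of these overlapped exons of 5 members. TWIST2 and SNAI1 had no such neighbour. Of the 14, a transcript of 1 was quantified, the processed pseudogene ENSG00000233109 near SNAI2, and it had 0 counts. ZEB1-AS1 (12 annotated transcripts), ZEB2-AS1 (17) and SNAI3-AS1 (19) were therefore not measured by these files, nor were the lncRNA ENSG00000232821 at TWIST1 or ENSG00000288761 at SNAI2. Whether strand was used in quantification is not given in the sources used here, so reads of a member and of its antisense partner cannot be told apart. The files also hold no transcript for the other lncRNA and pseudogenes near the members, ENSG00000285781, ENSG00000283118, LINC01412, ENSG00000236536 and ENSG00000287788, nor for the small RNA genes ENSG00000275372, ENSG00000273537 and ENSG00000277444 at ZEB2. Exons of 2 of these 3 small RNA genes overlapped ZEB2 exons, by 4 bases for ENSG00000275372 and by 19 bases for ENSG00000277444.

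ZEB1 (ENSG00000148516.23, GRCh38 chr10:31318495-31529814, plus strand) encodes a repressor of CDH1 with zinc fingers at both ends. Its exons overlapped those of ZEB1-AS1 over 396 bases near the start of the gene. The sequences below are only part of where the counted ZEB1 transcripts lie opposite ZEB1-AS1. Capitals mark bases that have an annotated exon on the other strand. Shown are the whole first exon of ZEB1-205 at chr10:31318495-31318580 and 112 bases within the first exon of ZEB1-216 at chr10:31319013-31319124. The 112 bases end just before the start of the coding transcript ZEB1-201.
ZEB1-205: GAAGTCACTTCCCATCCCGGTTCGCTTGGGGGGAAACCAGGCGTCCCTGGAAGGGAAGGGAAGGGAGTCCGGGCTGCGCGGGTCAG
ZEB1-216: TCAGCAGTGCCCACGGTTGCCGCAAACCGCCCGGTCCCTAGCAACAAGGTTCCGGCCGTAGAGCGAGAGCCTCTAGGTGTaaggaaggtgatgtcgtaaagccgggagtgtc
All 86 bases of the former and 80 of the 112 bases of the latter lie opposite an exon.

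Estimated counts of ZEB1 were 76.9, 78.2 and 99.5 in knockdown replicates 1 to 3 and 81.5, 55.2 and 110 in NT. The lowest and the highest sample were both controls, and the groups overlapped. Of 23 quantified transcripts, 8 had any count, and ZEB1-205 and ZEB1-216, both annotated as retained introns, held 53.4% and 42.2% of the gene's counts. ZEB1-205, with 6026 bases of which 266 lie opposite ZEB1-AS1 exons, had 33.0, 41.0 and 50.4 counts in KD and 49.6, 31.4 and 62.5 in NT. ZEB1-216, with 1014 bases of which 310 lie opposite, had 32.5, 33.7 and 47.6 counts in KD and 30.9, 22.1 and 44.8 in NT. Because ZEB1-216 is the shorter, it gave 35.0 ± 10.7 TPM of the gene's 46.3 TPM, and ZEB1-205 gave 6.48 ± 1.81 TPM (n = 6). Protein-coding ZEB1 transcripts held 0.409% of the gene's counts, all of it 2.05 counts of ZEB1-201 in knockdown replicate 2. The ZEB1 level in these files is thus not a level of annotated coding transcripts.

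Of ZEB1 counts, 96.0% lay on the 4 transcripts that overlap an exon on the opposite strand, with a range over samples of 85.1% to 100%. The summed counts of these 4 were 65.5, 74.7 and 98.0 in KD and 80.5, 55.2 and 107 in NT. The other 19 transcripts, of which 5 had any count, summed to 11.5, 3.52 and 1.43 in KD and 1, 0 and 2.71 in NT. In knockdown replicate 1 all 11.5 of these were on ZEB1-218, a transcript of 564 bases, for which they amounted to 20.5 TPM. On the transcripts without such an overlap, ZEB1 was at a mean of 4.59 TPM with a range of 0 to 20.5 TPM, against 41.7 TPM on the 4 that overlap. A large share on such transcripts was common in these files, where 17.98% of the annotated transcripts overlapped an exon on the other strand and held 58.3% of the counts. Among 4240 genes with both kinds of transcript and at least 60 counts over the 6 samples, the median share was 76.8%, and 28.9% of these genes were at or above ZEB1.

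**Figure D2:**
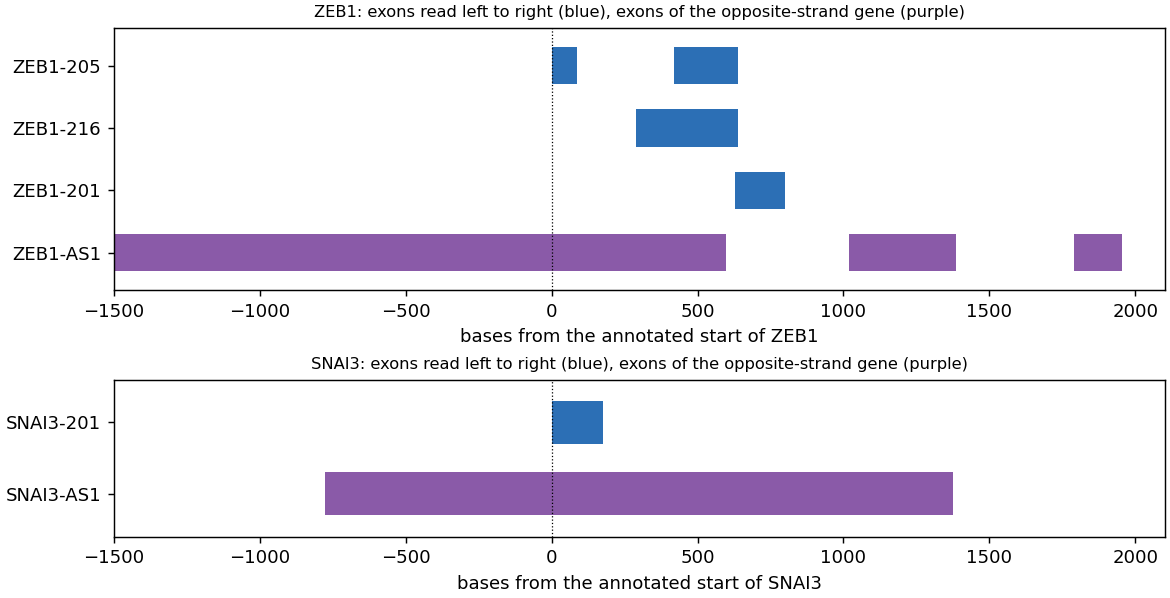
Annotated exons around the starts of ZEB1 and SNAI3, in bases from each gene's start, with member transcripts in blue and the exons of all transcripts of ZEB1-AS1 and SNAI3-AS1 merged in purple. Both ZEB1 transcripts with most counts begin opposite ZEB1-AS1 exons while ZEB1-201 starts beyond the nearest of them, and the first exon of SNAI3-201 lies wholly opposite an exon of SNAI3-AS1.

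SNAI3 (ENSG00000185669.6, GRCh38 chr16:88677688-88686507, minus strand) encodes a SNAI family zinc finger repressor and was the most abundant of the 7 genes by TPM. Its only annotated transcript, SNAI3-201, is protein coding and had 158, 105 and 80 estimated counts in KD and 181, 84 and 100 in NT. Replicate 1 of each group was the highest of its group, and the groups overlapped. Over 177 bases, the whole first exon of SNAI3-201, it lies opposite an exon of SNAI3-AS1. The remaining exons of SNAI3-201 have no annotated exon on the other strand, and how the counts were spread along the transcript is not recorded in the files.

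ZEB2 (ENSG00000169554.23, GRCh38 chr2:144364364-144521057, minus strand) encodes the other ZEB repressor. Its counts were 80.7, 42.3 and 47.99 in KD and 54.5, 61.2 and 52.3 in NT, with knockdown replicate 1 the highest and knockdown replicate 2 the lowest. Unlike ZEB1, most of these counts lay away from an antisense exon. ZEB2-227, a retained-intron transcript of 1 exon and 2967 bases with no annotated exon opposite, had 67.7, 34.3 and 40.0 counts in KD and 43.5, 50.1 and 45.3 in NT, 82.9% of the gene's counts. Its first 90 bases, at chr2:144463989-144464078 on the minus strand, are shown in lower case throughout because none lies opposite an exon.
ZEB2-227: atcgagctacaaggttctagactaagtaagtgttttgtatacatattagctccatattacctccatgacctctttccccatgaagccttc
The protein-coding transcript with most counts, ZEB2-226, had 7, 4 and 6 counts in KD and 5, 6 and 5 in NT. Coding transcripts together held 14.0% of ZEB2 counts. Of the 30 quantified ZEB2 transcripts, 16 overlapped an exon on the other strand, and these 16 held 12.8% of the counts. The exons of ZEB2-AS1 overlap those of ZEB2 over 1299 bases.

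Retained-intron transcripts held 99.3% of ZEB1 counts and 82.9% of ZEB2 counts. Over the whole annotation they made up 17.2% of the transcripts in the files and held 11.99% of the counts. Among 6474 genes with such a transcript and at least 60 counts, the median share was 13.4%, and 2.18% of these genes had a share at or above that of ZEB1 and 11.8% at or above that of ZEB2. The libraries were made from total RNA, which includes unspliced RNA, and its part in these counts was not tested.

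TWIST1 (ENSG00000122691.13, GRCh38 chr7:19020991-19117636, minus strand) and TWIST2 (ENSG00000233608.5, GRCh38 chr2:238848032-238910534, plus strand) encode closely related basic helix-loop-helix factors. TWIST1 had 12, 12 and 16 counts in KD and 12, 16 and 8 in NT. Of these counts, 86.4% lay on TWIST1-201, the coding transcript, which has no exon opposite. The 2 other TWIST1 transcripts, annotated as targets of nonsense-mediated decay, held 13.7% of the counts and overlap the lncRNA ENSG00000232821, whose exons cover 141 bases of TWIST1 exons. TWIST2 had 6, 16 and 9 counts in KD and 14, 5 and 11 in NT, the widest relative spread of the tested members. Its counts lay on 2 coding transcripts, TWIST2-201 with 67.8% and TWIST2-202 with 32.2%. Most or all counts of TWIST1 and TWIST2 thus lay on coding transcripts, at 16 counts or fewer per sample. No quantified transcript of either gene is annotated as a retained intron, and both of TWIST2 are coding. The contrast with ZEB1 and ZEB2 is therefore set in part by the annotation. All quantified transcripts of SNAI1, SNAI2 and SNAI3 are also annotated as coding.

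**Figure D3:**
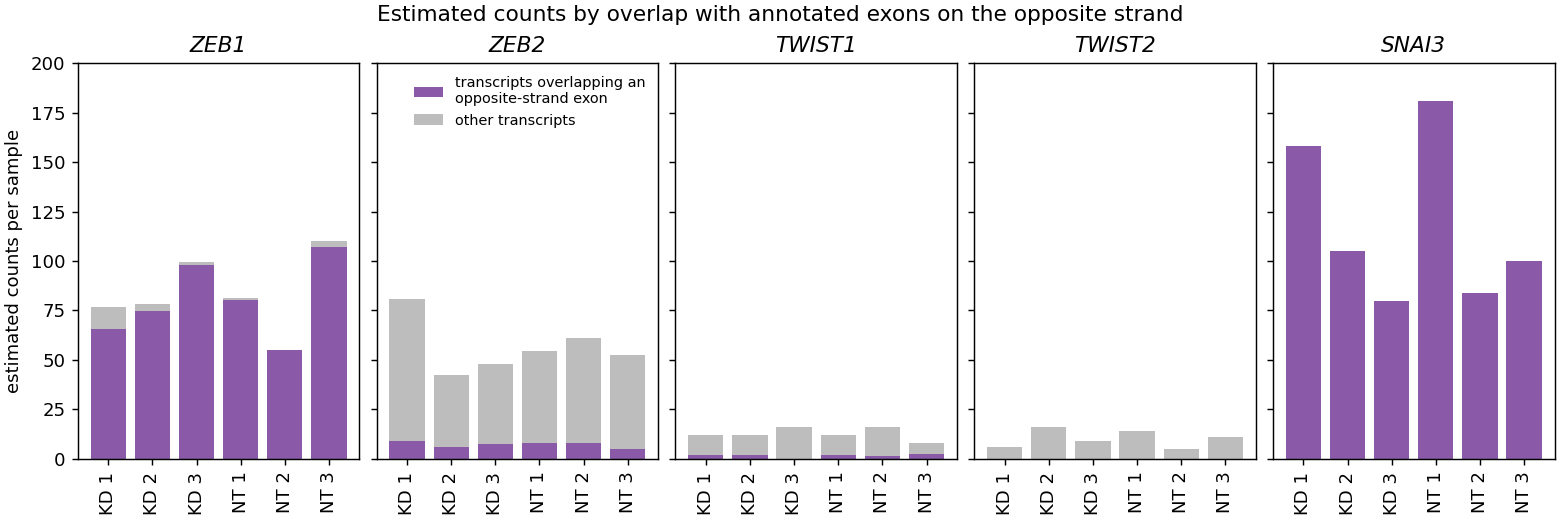
Estimated counts per sample (KD, knockdown; NT, control) of the 5 tested members, stacked by whether the transcript overlaps an annotated exon on the opposite strand (purple) or does not (grey). SNAI3 is wholly purple and ZEB1 almost so at 96.0% of its counts, ZEB2 and TWIST1 are mostly grey, and TWIST2 is wholly grey.

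SNAI1 and SNAI2 encode Snail and Slug, and both were at the limit of detection. SNAI1 (ENSG00000124216.4, GRCh38 chr20:49982980-49988886, plus strand) had 0 counts in all 3 knockdown samples and 2, 0 and 0 in NT. By counting error alone, a count of 0 allows up to 3 counts, or 1.395 to 2.105 CPM. A decrease of SNAI1 from these NT counts, or a rise below that level, was therefore not detectable. SNAI2 (ENSG00000019549.13, GRCh38 chr8:48917598-48921740, minus strand) had 1, 2 and 6 counts in KD and 3, 1 and 9 in NT. Replicate 3 was the highest of each group, and no sample had more than 9 counts. SNAI2-202 held 86.4% of the SNAI2 counts, and its length differed between the files, at 2204 bases, and GENCODE 44, at 626 bases, so the 121 bases by which it overlaps the exon of ENSG00000288761 hold for the annotated model and may not hold for the one quantified. Both genes fell below the count filter and were not fitted, and exact two-sided permutation tests of their log2 CPM gave p = 1 for SNAI1 and p = 0.7 for SNAI2 (n = 3 per group, smallest possible p = 0.1).

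To ask whether DNM3OS knockdown changed the members, KD was set against NT over 11814 genes by edgeR's exact test with Benjamini-Hochberg adjustment. A call needed a change of 2-fold or more and an adjusted p under 0.05. None of the 5 members that passed the filter met this threshold. Over all genes tested, 1 was lower, which is 0.00846%, and 0 were higher, which is 0%, while 345 genes had an unadjusted p below 0.05. The gene past the threshold was BORCS7-ASMT, a readthrough gene, with 6.33, 5.97 and 0 counts in KD and 21.1, 27.2 and 23.6 in NT (log2 fold change -2.59, SE 0.67, adjusted p = 0.0055 by edgeR's exact test with Benjamini-Hochberg adjustment). With edgeR's quasi-likelihood test and with DESeq2, 0 genes were lower. In a background this sparse, 0 of 5 members past the threshold does not set the members apart from other genes.

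For each tested member, the difference was smaller than its standard error. ZEB1 was at 52.7 ± 16.8 CPM in KD and 49.0 ± 14.6 CPM in NT (SD, n = 3), a log2 fold change of 0.09 (SE 0.36). ZEB2 was at 33.2 ± 4.67 and 33.8 ± 5.35 CPM, a log2 fold change of -0.01 (SE 0.17), the smallest standard error among the members. SNAI3 was at 66.9 ± 9.37 and 72.3 ± 26.7 CPM, a log2 fold change of -0.11 (SE 0.31). TWIST1, at 8.30 ± 2.83 and 7.34 ± 2.92 CPM, had a log2 fold change of 0.16 (SE 0.38). TWIST2, at 6.64 ± 4.02 and 5.91 ± 2.401 CPM, had a log2 fold change of 0.11 (SE 0.56). Unadjusted p ranged from 0.708 for SNAI3 to 0.973 for ZEB2, and every adjusted p was 1 by edgeR's exact test with Benjamini-Hochberg adjustment. Exact two-sided permutation tests of log2 CPM, which cannot go below 0.1 with 3 samples per group, gave p between 0.7 for TWIST1 and 1 for ZEB2 and TWIST2. Of the 5 values, 3 were above 0 and 2 below, where 49.4% of all genes tested were below 0 and the median over all genes was 0.004. No member had groups that did not overlap, against 3.56% of genes that were lower without overlap and 4.42% that were higher.

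The signs were not stable. When each sample was left out in turn, all 5 tested members changed sign at least once. ZEB1 went from 0.09 to -0.16 without knockdown replicate 3 and to -0.08 without control replicate 2. SNAI3 went from -0.11 to 0.23 without control replicate 1, its highest sample. ZEB2 turned to 0.09 without knockdown replicate 2 and to 0.13 without control replicate 2. TWIST1 turned to -0.11 without knockdown replicate 3 and to -0.09 without control replicate 3. TWIST2 turned to -0.44 without knockdown replicate 2 and to -0.16 without control replicate 2, and its full range was -0.44 to 0.53. No member reached a 2-fold change in any of these fits. Without knockdown replicate 1, the sample that stood apart, ZEB1 was at 0.33, ZEB2 at -0.11, TWIST1 at 0.41, TWIST2 at 0.53 and SNAI3 at -0.18 on the log2 scale, and every adjusted p stayed at 1 by edgeR's exact test with Benjamini-Hochberg adjustment.

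**Figure D4:**
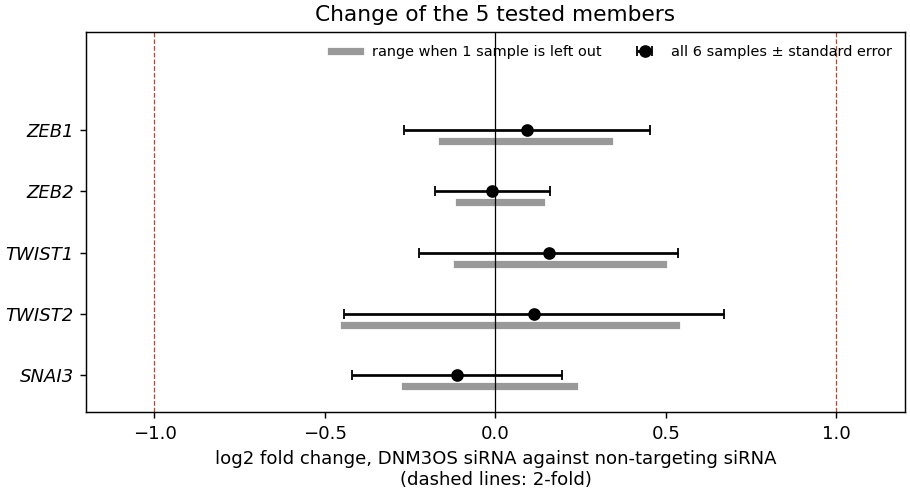
Log2 fold change of the 5 tested members, knockdown against control, with standard errors (black) and the range when each sample is left out in turn (grey), and dashed lines at 2-fold. All estimates lie between -0.11 and 0.16, and every grey range crosses 0 and stays inside the dashed lines.

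At the transcript level, 5 member transcripts were among the 15767 tested, and none passed the threshold by edgeR's exact test with Benjamini-Hochberg adjustment, each with an adjusted p of 1. Among all transcripts tested, 0.159% were called lower and 0.0951% higher. ZEB1-205 had a log2 fold change of -0.18 (SE 0.43) and ZEB1-216 of 0.23 (SE 0.42), so the 2 leading ZEB1 transcripts had opposite signs and neither differed beyond its standard error. The values were -0.05 (SE 0.15) for ZEB2-227, 0.20 (SE 0.47) for TWIST1-201 and -0.16 (SE 0.33) for SNAI3-201. The test does not model the error of dividing reads between transcripts, and its size was not measured.

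The target of the siRNA could not be followed, because none of the 6 annotated DNM3OS transcripts was quantified. DNM3OS lies on the opposite strand within DNM3, the gene of a dynamin GTPase. DNM3 had 75, 32 and 29 counts in KD and 44, 30 and 34 in NT. Its log2 fold change of 0.27 (SE 0.26) turned to -0.03 without knockdown replicate 1, and its adjusted p was 1 by edgeR's exact test with Benjamini-Hochberg adjustment. The extent of the knockdown was therefore not checked by these values.

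Genes that work with the members did not pass the threshold either, in any of the lists below, by edgeR's exact test with Benjamini-Hochberg adjustment. All 18 DNA-binding partners and co-repressors were tested, and 15 had a negative log2 fold change, with a median of -0.17 against 0.004 over all genes, and 0 of them had an unadjusted p below 0.05. Without knockdown replicate 1, 11 of the 18 were negative and the median was -0.06. The most abundant were the co-repressor CTBP2, which ZEB proteins bind directly, at -0.17 (SE 0.23) and 0.03 without that sample, the LIM protein LIMD1 at 0.21 (SE 0.08), the histone deacetylase HDAC2 at -0.17 (SE 0.21) and the histone demethylase KDM1A, which SNAI proteins recruit, at -0.11 (SE 0.19). Of 15 genes that control the stability of the proteins, 9 were tested, 6 of them below 0 and 3 above, with a median of -0.07. The kinase ATM, which phosphorylates ZEB1, was at 0.02 (SE 0.13), the ubiquitin ligase SIAH1 at 0.20 (SE 0.08), FBXO11, which targets SNAI proteins, at -0.18 (SE 0.13) and the kinase PAK1 at -0.07 (SE 0.16). COPS2, a subunit of the COP9 signalosome, was the only gene of this list with an unadjusted p below 0.05. Of all genes tested, 2.92% had such a p by edgeR's exact test. It was at 15.4, 10.8 and 10.5 CPM in KD and 21.1, 20.3 and 18.2 CPM in NT. These groups did not overlap, and 3.56% of all genes tested were lower without overlap. Its log2 fold change was -0.67 (SE 0.17), or -0.88 without knockdown replicate 1. The adjusted p of COPS2 was 1 by edgeR's exact test with Benjamini-Hochberg adjustment.

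Of 20 other transcription factors that induce EMT, 18 were in the files and 12 were tested, 4 below 0 and 8 above, with a median log2 fold change of 0.10. The Hippo pathway factor TEAD1 was at 0.27 (SE 0.52) and turned to -0.27 without knockdown replicate 1, KLF8 at 0.07 (SE 0.27) and the chromatin protein HMGA2 at 0.09 (SE 0.37). SOX4 was at 25.1, 35.8 and 44.2 CPM in KD and 57.0, 47.8 and 51.8 CPM in NT, again without overlap. Its log2 fold change was -0.59 (SE 0.24), or -0.38 without knockdown replicate 1, with an adjusted p of 1 by edgeR's exact test with Benjamini-Hochberg adjustment. Non-overlap of this kind, in the lower direction, was seen in 3.56% of all genes tested. Among 16 transcription and splicing factors of epithelial cells, 7 were tested, 2 below 0 and 5 above, with a median of 0.07, or 4 below and 3 above with a median of -0.0041 without knockdown replicate 1. The ETS factor ELF3 was at 0.02 (SE 0.43), the splicing regulator ESRP2 at 0.12 (SE 0.16), GRHL1 at 0.13 (SE 0.33) and ELF5 at -0.31 (SE 0.35).

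Of 20 epithelial genes that the members are known to repress, 11 were tested, 7 below 0 and 4 above, with a median log2 fold change of -0.09, and 0 had an unadjusted p below 0.05. CDH1, the target that all 3 families share, was at 23.3 ± 5.68 CPM in KD and 19.1 ± 2.05 CPM in NT (SD, n = 3), a log2 fold change of 0.30 (SE 0.22), or 0.17 without knockdown replicate 1. The desmosomal gene DSP was at 19.5, 52.7 and 73.7 CPM in KD and 130.4, 43.9 and 101.2 CPM in NT, a log2 fold change of -0.93 (SE 0.73). The keratin gene KRT18 was at 17.7, 57.4 and 94.0 CPM in KD and 93.99, 50.4 and 94.1 CPM in NT, a log2 fold change of -0.50 (SE 0.75). For both, knockdown replicate 1 was the lowest sample and the other knockdown samples lay within the NT range. Without that sample the values were -0.53 for DSP and -0.06 for KRT18. The polarity gene PATJ was at 0.10 (SE 0.27). MUC1 and GJB2 were at 0 in all samples. Of 3 genes listed for the miR-200 and miR-205 loci, 1 was in the files, TTLL10, and it fell below the filter. It was at 6.98, 6.08 and 6.32 CPM in KD and 3.42, 2.62 and 5.29 CPM in NT, without overlap, which 4.42% of all genes tested showed in this direction. The exact permutation test gave p = 0.1, the smallest possible with 3 samples per group. Non-overlapping groups were also found for 2 other list genes below the filter, at levels near that of 3 counts. The splicing regulator ESRP1 was at 3.26, 2.70 and 2.11 CPM in KD and 1.71, 1.31 and 0 in NT. The deubiquitinase USP51 was at 1.40, 0.675 and 0.702 CPM in KD and 1.71, 1.96 and 1.77 in NT. Before scaling, neither gene had separate groups. USP51 had 3, 1 and 1 counts in KD and 3, 3 and 3 in NT. ESRP1 had 6.84, 3.57 and 2.52 counts in KD and 3.42, 2.11 and 0 in NT. The share of 4.42% covers only genes that passed the filter. No such share was computed for genes below it, such as TTLL10, ESRP1 and USP51. Of the 10 SKOV3 markers, 7 were tested and 6 were below 0, with a median of -0.50. Knockdown replicate 1 was the lowest sample for all 6 of these, VIM, KRT19, KRT18, ERBB2, PAX8 and CDH2. It also had the lowest ribosomal protein share. Without this sample 5 of the 7 were below 0, with a median of -0.21. Of the 12 markers of other cells, 5 were tested, 2 below 0 and 3 above, with a median of 0.002. In bulk samples, fewer cells of a type and less RNA per cell cannot be told apart.

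The genes whose log2 CPM followed each tested member most closely over the 6 samples are given as a description, since the points share libraries and depth. For ZEB1 these were HSBP1L1 (Pearson r = 0.991), ACOT2 (0.989) and IMPDH2 (0.988), and 141 genes had an r above 0.9. ZEB2 was followed by C1orf127 (r = 0.994), CD82 (0.987) and TNFAIP8L3 (0.984), with 163 genes above 0.9. TWIST1 was followed by COG2 (r = 0.996), CYBRD1 (0.984) and UMPS (0.984), with 35 above 0.9. TWIST2 was followed by FAAP100 (r = 0.996), ZNF143 (0.988) and CCDC183 (0.986), with 183 above 0.9. SNAI3 was followed by SPDYE9 and SPDYE11, paralogs with the same r of 0.988 and the same mean of 9.99 CPM, whose reads may be shared, and by TSSK3 (0.980), with 36 above 0.9. No member was among the 3 closest genes of another member.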

How the data were processed

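RNA-seq of 3 DNM3OS siRNA and 3 non-targeting siRNA samples was grouped by the labels. The authors quantified the reads with kallisto 0.43.0 (submitters' processing notes) against Ensembl transcripts of GRCh38 and deposited, per transcript, an estimated count without normalization and a TPM. The strand setting is not given in the sources used here. Of 173259 transcripts, 155518 were matched by identifier to GENCODE 44, and the other 17741 were left out. Gene values are rounded sums of the estimated counts. After filterByExpr (minimum count 10) and TMM scaling, genes and transcripts were each compared in edgeR 4.0.16 (R 4.3.3) by the exact test with Benjamini-Hochberg adjustment. The coefficient of variation between samples, the square root of edgeR's common dispersion, came to 0.2317 for genes and 0.3677 for transcripts. This variation may be technical. Standard errors come from log2 CPM (prior count 2) between replicates. On the TMM-scaled CPM, 3 counts equal 1.395 to 2.105. Intervals of counting error are not given. The scripts were tested on simulated data.

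Exon overlap was computed from GENCODE 44, and printed bases were taken from its transcript sequences at those GRCh38 coordinates. The members and gene lists (partners and co-repressors, stability control, other EMT factors, epithelial factors, repressed targets, miR loci, SKOV3 and other cell markers) were chosen with earlier results of these data known. Named were all members, their opposite-strand neighbours within 5000 bases, DNM3OS, DNM3, genes past the threshold, the 4 most abundant tested genes of each pathway list and the 3 genes most like each tested member. COPS2, TTLL10, ESRP1, USP51, MUC1, GJB2 and further markers were named after their values were seen. As alternatives, quasi-likelihood fits (unblocked, and blocked on the replicate number), DESeq2 1.42.0, RLE scaling, other filters, counts derived from TPM and length, coding genes alone and the omission of each sample were run. Whether same-numbered samples are paired could not be settled with 3 samples per group.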

Additional observations from a re-analysis of the deposited data

How the results depend on the processing

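The 5 tested members, 5 member transcripts and DNM3 had 143 alternative fits, of which 20 reversed the sign of the log2 fold change and none passed the threshold (lowest adjusted p 0.944 over edgeR's tests and DESeq2). Reversals other than by leaving out a sample were ZEB2 at 0.0096 with protein-coding genes only and TWIST1 at -0.013 with length-scaled TPM counts. Leaving out each sample in turn gave log2 fold changes from -0.16 to 0.33 for ZEB1, from -0.11 to 0.13 for ZEB2, from -0.11 to 0.49 for TWIST1, from -0.44 to 0.53 for TWIST2, from -0.26 to 0.23 for SNAI3, from -0.46 to 0.13 for ZEB1-205, from -0.10 to 0.52 for ZEB1-216, from -0.13 to 0.079 for ZEB2-227, from -0.20 to 0.64 for TWIST1-201, from -0.32 to 0.21 for SNAI3-201 and from -0.031 to 0.41 for DNM3. The cause of these reversals was not tested.

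Genes past the threshold and lower numbered 1 in the main comparison, 0 with edgeR's quasi-likelihood test, 0 with DESeq2, 2 with no filter on low counts, 2 with a filter of 1 CPM in 3 samples, 3 with length-scaled TPM counts and 0 to 3 when a sample was left out. Genes higher numbered 0, and 0 to 1 when a sample was left out. Transcripts lower numbered 25, 0 with the quasi-likelihood test, and 31 to 118 when a sample was left out, and transcripts higher numbered 15, 0 and 22 to 37. With no filter, transcripts lower numbered 36 and higher 18. In addition, 3 alternatives were chosen after seeing the data, among them the gene lists without knockdown replicate 1, whose medians ranged from -0.21 for SKOV3 markers to 0.13 for other EMT factors with 0 genes past the threshold. Keeping transcripts outside the annotation gave 4 genes lower and 1 higher. Leaving out transcripts opposite other exons gave 0 lower, and it left ZEB1 and SNAI3 below the filter, so they have no value there. SNAI1 had at most 2 counts and SNAI2 at most 9 in a sample, and no alternative fit is reported for them. The cause of these low counts was not tested.

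Same-numbered knockdown and control samples had correlations of deviations of -0.396, -0.336 and 0.233. Differently numbered ones ranged from -0.411 to 0.533. With 3 samples per group, these values cannot settle whether the numbers pair the samples. With the replicate block in the quasi-likelihood test, 0 genes were lower, 0 were higher, 0 transcripts were lower and 0 were higher. Under the block, ZEB1 was at 0.09, ZEB2 at -0.01, TWIST1 at 0.17, TWIST2 at 0.04 and SNAI3 at -0.07 on the log2 scale.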
